A study of Homo sapiens with 8 samples.

Results

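The 34 genes described here build sialic acid, activate it, carry it between compartments, attach it to glycans, take it off again or modify it. They were chosen by symbol from the 63816 gene entries of the expression table, as the sialyltransferases, the sialidases and the genes of CMP-sialic acid synthesis, transport and modification. The rule itself uses symbols and no measured value, although it was set with earlier results of these data known. All 34 were in the table, 32 of them as a single entry. Where a symbol stood on several entries, the entry with the highest mean was taken, which concerned NEU1 and NEU4. RNA was measured in Caco-2, an established human line from a colorectal adenocarcinoma, in 4 libraries of cells carrying the empty expression vector pcDNA3.1 and 4 libraries of cells carrying the same vector with full-length SIGLEC12, the gene of Siglec-XII. Both populations had been transfected with linearized plasmid and kept under G418 for about a month. According to the series description the cells were stable clones grown as fewer cultures than there are libraries, and the paper's methods mention technical replicates, so the errors below may hold technical spread alone. Each group goes back to its own transfection, and a difference between transfected populations cannot be told apart from one that follows Siglec-XII.

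Sialic acids are acidic 9-carbon sugars that cap the outer ends of glycans on proteins and lipids. They are made in the cytosol from UDP-N-acetylglucosamine, activated in the nucleus as CMP-sialic acid, carried into the Golgi and transferred by sialyltransferases, each family of which forms its own linkage, and they are released by sialidases, mainly in lysosomes and at the plasma membrane. Siglecs are cell surface receptors that bind such caps, and Siglec-XII is the member whose binding arginine was lost in humans. In intestinal epithelium, sialylated mucins and glycolipids form part of the cell surface, and altered sialylation is a known feature of colorectal tumours.

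All values are TPM, transcripts per 1e+06 transcripts (a share of each library's RNA that takes transcript length into account, so that levels may be compared between genes), taken back from the deposited log2(TPM + 1). Differences are log2 fold changes of TPM + 1, Siglec-XII minus empty vector, which understate the change of genes at low level. The filter kept entries at 1 TPM or more in 4 or more libraries, 15590 in all, and these were tested with limma, with Benjamini-Hochberg adjustment over all of them. SIGLEC12 itself averaged 0.0795 ± 0.0342 TPM in empty vector libraries and 1667 ± 71.3 TPM in Siglec-XII libraries (SD, n = 4 each), and every library matched its label (exact permutation test, two-sided, p = 0.0286, the smallest p that 4 against 4 allow). Levels across entries correlated at 0.979 to 0.984 within groups and at 0.972 to 0.980 between them. The labelled cell type went against most of its markers. Of 20 colon epithelium markers only CDX1 and CDX2 passed the filter, 16 reached 1 TPM in no library, and KRT20, FABP1, PHGR1, SI and TFF3 were listed at 0 throughout. All 5 general epithelial markers and 14 of 18 trophoblast markers passed, among them XAGE2 at 803 TPM with the empty vector and 730 TPM with Siglec-XII. Other trophoblast markers passed only near the filter, such as PSG1 (1.35 and 1.09 TPM) and CGA (0.982 and 0.588 TPM). CGB3, CGB5, LEP and INSL4 did not pass. Of 5 fibroblast markers, 4 passed as well. The lines are therefore called the transfected cells below.

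The promoters of the 3 members whose groups did not overlap are shown first, because they belong to the consecutive steps from sialic acid synthase to CMP-sialic acid synthetase. Each is a window of 300 bases, 250 before and 50 from the RefSeq start site on (sequences from RefSeq on GRCh38.p14, each found once, letter for letter, on GRCh37, whose coordinates are given), read 5′ to 3′ on the gene's strand. Capitals mark every match, on either strand, to GGGCGG (the GC box bound by Sp1), CCAAT (bound by NF-Y) or TATAAA (the TATA box). The windows lie at chr12:22198902-22199201 on the plus strand (CMAS), chr9:100818764-100819063 on the plus strand (NANS) and chr20:25604601-25604900 on the minus strand (NANP).
CMAS: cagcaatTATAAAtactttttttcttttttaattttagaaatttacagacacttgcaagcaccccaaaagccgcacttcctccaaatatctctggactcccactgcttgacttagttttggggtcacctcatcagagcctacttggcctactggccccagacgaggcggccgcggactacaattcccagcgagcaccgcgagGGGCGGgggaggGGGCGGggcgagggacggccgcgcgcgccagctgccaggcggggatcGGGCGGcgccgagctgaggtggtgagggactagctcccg
NANS: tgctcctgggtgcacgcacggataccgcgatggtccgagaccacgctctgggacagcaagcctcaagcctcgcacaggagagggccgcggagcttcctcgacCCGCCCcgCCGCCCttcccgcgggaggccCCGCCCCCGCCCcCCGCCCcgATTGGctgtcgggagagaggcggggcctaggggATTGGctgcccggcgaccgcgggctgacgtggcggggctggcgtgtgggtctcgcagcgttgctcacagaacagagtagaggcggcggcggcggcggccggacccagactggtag
NANP: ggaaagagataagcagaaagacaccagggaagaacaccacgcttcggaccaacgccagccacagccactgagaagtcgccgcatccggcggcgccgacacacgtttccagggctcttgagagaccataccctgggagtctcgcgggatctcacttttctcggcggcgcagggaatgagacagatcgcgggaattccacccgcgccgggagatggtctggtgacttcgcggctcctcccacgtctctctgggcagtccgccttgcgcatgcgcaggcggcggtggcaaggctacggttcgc
The CMAS window held 3 GC boxes and 1 TATA box, the latter 243 to 238 bases upstream of the start. The NANS window held 5 GC boxes and 2 CCAAT boxes, all on the opposite strand, and the NANP window held none of the 3 motifs. Over 35116 RefSeq windows of the same length, 45.0% held a GC box, 34.6% a CCAAT box and 11.5% a TATA box. CACGTG (an E-box), the core of the interferon response element and TGANTCA (the AP-1 element) were in none of these 3 windows and in 7.26%, 3.57% and 7.71% of all windows. These matches describe the letters only, and of the 34 members, 26 had a window in the reference.

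No sialic acid gene had an adjusted p under 0.05 in limma, against 0.648% of all tested entries. Of the 34 genes, 22 passed the filter. The other 12 stayed below 1 TPM in every library, with 0.652 TPM as their highest value, and were not tested. Among the 22, 10 were higher and 12 lower with Siglec-XII, with a median log2 fold change of -0.02, whereas the median of all tested entries was 0.07 and 68.1% of those were above 0. At an unadjusted p of 0.05 or less, 4 of the 22 (18.2%) stood out, against 16.5% of all tested entries. These were NANS, ST3GAL1 and ST3GAL2, higher with Siglec-XII (13.9% of all entries), and CMAS, lower with Siglec-XII (2.61% of all entries). None reached a 2-fold difference, which with that p was met by 0.603% of all entries. In 3 of the 22 (13.6%) the groups did not overlap, against 10.8% of all entries, namely NANS and NANP on the higher side (9.17% of all entries) and CMAS on the lower side (1.68%). Without empty vector replicate 2, 6 did not overlap (19.3% of all entries), with the length trend removed 1 (7.63%) and under each of 3 other scalings 2 (7.87% to 8.44%). Without Siglec-XII replicate 1, 2 were at an unadjusted p of 0.05 or less (14.2% of all entries). Counts this close to the background are no result about the sialic acid genes as a set. The 95% intervals of all 22 fold changes of TPM + 1 lay within 2-fold, from -0.66 at the lowest bound to 0.68 at the highest. Such bounds are wider in TPM for genes at low level, so they do not place each gene within 2-fold in TPM. Marker sums also separated the groups. The summed TPM of the general epithelial markers ran from 8257 to 9230 with the empty vector and from 9840 to 10217 with Siglec-XII, that of the colon list from 164 to 187 and from 191 to 216, and that of the trophoblast list from 2388 to 2496 and from 2313 to 2336. The colon sum rests on CDX1 and CDX2, and within the trophoblast list GATA3, XAGE2 and PAGE4 were lower and KRT7, SIGLEC6 and HAND1 higher in mean TPM with Siglec-XII, so the sums are no measure of a shift in cell type. Their part in the differences below was not tested, and in RNA from whole cultures fewer cells of a type and less RNA per cell cannot be told apart.

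**Figure D1:**
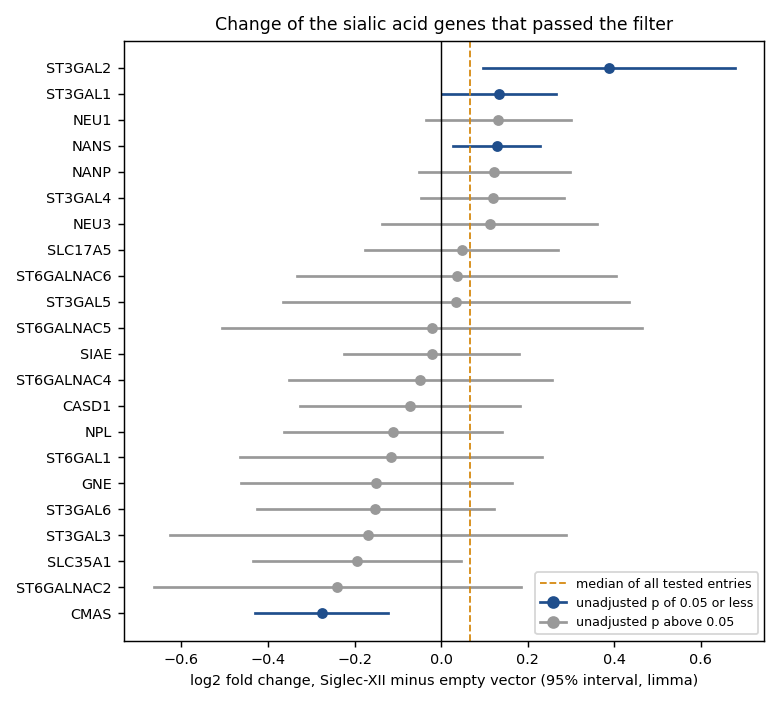
Log2 fold change of TPM + 1, Siglec-XII minus empty vector, for the 22 sialic acid genes that passed the filter, in order of size, with 95% intervals from limma as lines. Blue points have an unadjusted p of 0.05 or less (CMAS on the left, ST3GAL2, ST3GAL1 and NANS on the right), and the dashed line marks the median of all tested entries, 0.07.

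**Figure D2:**
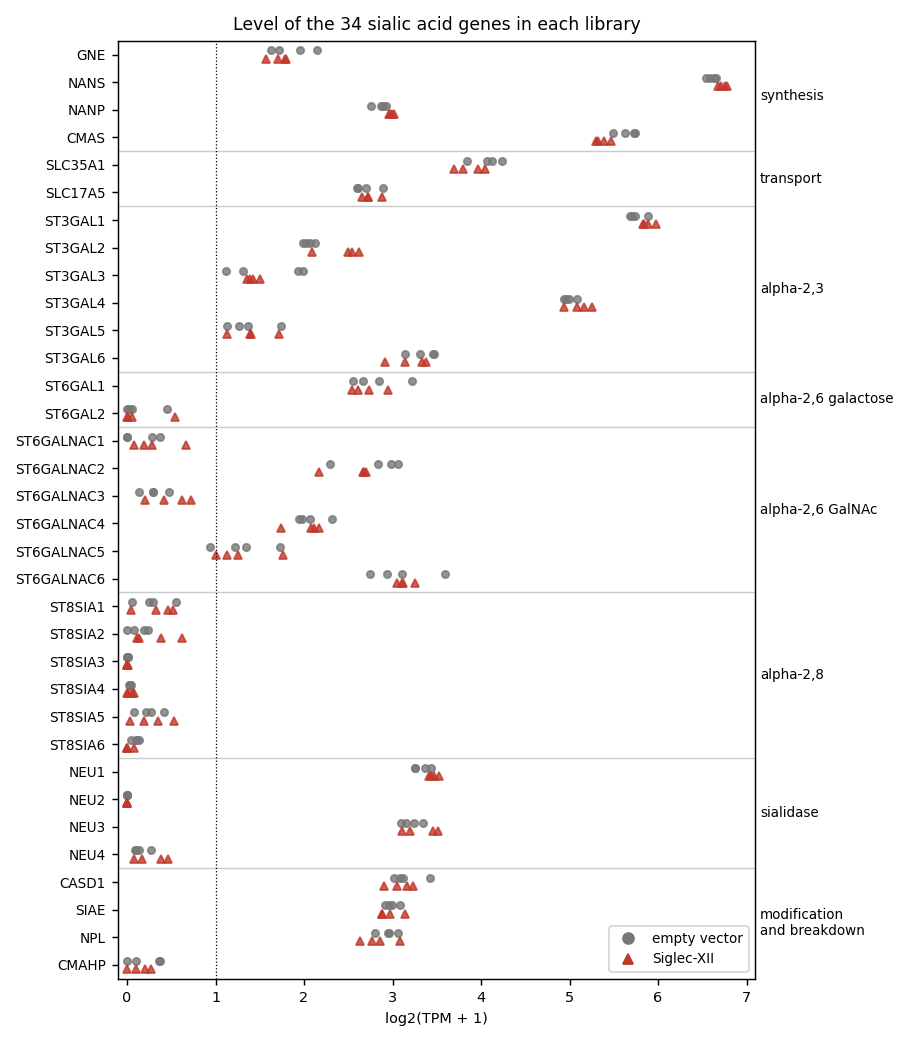
Level of the 34 sialic acid genes on the log2(TPM + 1) scale in each of the 8 libraries, grouped by role, with grey circles for empty vector and red triangles for Siglec-XII. The dotted line stands at 1 TPM. NANS lies highest, followed by ST3GAL1, CMAS and ST3GAL4, and all points of the 12 genes that did not pass the filter lie left of the line. NEU1 is drawn as its highest single entry.

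The transfected cells held the synthesis pathway at very uneven levels. NANS, the synthase that joins phosphoenolpyruvate to N-acetylmannosamine 6-phosphate, was the most abundant of all 34 genes, with a mean of 101 TPM, above 89.4% of the tested entries. CMAS, the CMP-sialic acid synthetase, followed at 44.8 TPM, whereas NANP, the phosphatase between them, stood at 6.60 TPM and GNE, the enzyme of the first committed and feedback-controlled steps, at 2.48 TPM. The ratio of NANS to GNE was 37.2 ± 7.19 in empty vector libraries and 46.3 ± 3.89 in Siglec-XII libraries (SD, n = 4 each). The 4 genes summed to 154 ± 2.54 TPM in empty vector libraries and 155 ± 5.60 TPM in Siglec-XII libraries (SD, n = 4 each), a difference smaller than the spread of either group. Within this sum the means of NANS (96.2 and 105 TPM) and CMAS (49.2 and 40.4 TPM) differed in opposite directions. The sum therefore does not show that each gene stayed level.

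CMAS (chr12:22199152-22218608, plus strand, GRCh37, ENSG00000111726) stood at 51.9, 43.9, 48.6 and 52.3 TPM in the 4 empty vector libraries. With Siglec-XII it stood at 43.4, 40.8, 38.4 and 39.0 TPM. Every Siglec-XII library was below every empty vector library, although Siglec-XII replicate 1 and empty vector replicate 2 nearly met. The log2 fold change was -0.28 (SE 0.068, 95% interval -0.43 to -0.12), with an unadjusted p of 0.0027 and an adjusted p of 0.111 in limma, the lowest of the sialic acid genes. The unadjusted p stayed at 0.05 or less in 21 of 21 alternatives, with adjusted p from 0.0533 to 0.244. The end of CMAS overlaps ST8SIA1 on the opposite strand, and ST8SIA1, the GD3 synthase, did not exceed 0.468 TPM in any library. Whether the quantification used strand is not given in the sources used here, and 13 of the 22 tested genes overlap an annotated gene on the other strand.

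NANS (chr9:100819014-100845359, plus strand, ENSG00000095380) was at 98.0, 99.8, 95.01 and 91.8 TPM with the empty vector. With Siglec-XII it was at 109, 107, 101 and 104 TPM. All 4 Siglec-XII libraries were above all 4 empty vector libraries, with empty vector replicate 2 and Siglec-XII replicate 3 closest. The log2 fold change was 0.13 (SE 0.045, 95% interval 0.03 to 0.23), with an adjusted p of 0.213 in limma. It dropped to 0.07 under quantile normalization or equal upper quartiles, which took the unadjusted p from 0.018 to 0.167 and 0.202. With the length trend removed that p was 0.185. The unadjusted p was 0.05 or less in 16 of 21 alternatives. The gene overlaps TRIM14 on the opposite strand.

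NANP (chr20:25593571-25604650, minus strand, ENSG00000170191) ran at 5.75, 6.58, 6.32 and 6.44 TPM with the empty vector and at 6.87, 6.75, 7.11 and 6.93 TPM with Siglec-XII. The groups did not overlap, but the gap was narrow and the log2 fold change of 0.12 (SE 0.077, 95% interval -0.05 to 0.30) had an adjusted p of 0.457 in limma. Removing the trend of fold change with transcript length left 0.02. GNE ran at 2.30, 3.41, 2.88 and 2.09 TPM with the empty vector and at 2.48, 2.25, 1.97 and 2.43 TPM with Siglec-XII. Its groups overlapped, and its log2 fold change of -0.15 (SE 0.140) had an adjusted p of 0.632 in limma.

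The opposite directions of NANS and CMAS fix the order of the groups in their ratio, which is given for its size only. In TPM it was 1.97 ± 0.219 in empty vector libraries, between 1.75 and 2.27, and 2.60 ± 0.0711 in Siglec-XII libraries, between 2.50 and 2.67 (SD, n = 4 each). A ratio within a library does not depend on how the library was scaled. It was formed after both genes' values were known and is given with no test.

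The transport genes overlapped between the groups. SLC35A1, which carries CMP-sialic acid into the Golgi, was at 13.4, 16.5, 15.8 and 17.8 TPM with the empty vector and at 15.5, 11.9, 14.6 and 12.9 TPM with Siglec-XII. The 4 values of each group overlapped, and the log2 fold change of -0.19 (SE 0.107) had an unadjusted p of 0.101 and an adjusted p of 0.394 in limma. The unadjusted p was 0.05 or less in 5 of 21 alternatives (4 rescalings, with log2 fold changes of -0.26 to -0.24, and -0.27 without empty vector replicate 1), with an adjusted p of at least 0.298. Without that replicate the lowest empty vector value, 15.8 TPM, lay above the highest Siglec-XII value, 15.5 TPM. SLC17A5, which lets free sialic acid out of the lysosome, lay between 5.04 and 6.40 TPM over all libraries, with a log2 fold change of 0.05 (adjusted p = 0.850, limma).

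Of the 20 sialyltransferases, 11 passed the filter, and those that form alpha-2,3 linkages made up most of their RNA. The 6 alpha-2,3 enzymes took 79.5% ± 1.98 of the summed sialyltransferase TPM in empty vector libraries and 81.5% ± 1.82 in Siglec-XII libraries (SD, n = 4 each, as for the other classes). ST3GAL1, which caps the core 1 O-glycan, and ST3GAL4, which acts on N-glycan and selectin-ligand termini, together took 66.7% ± 1.40 and 69.4% ± 1.01, with 68.4% as the highest empty vector and 68.5% as the lowest Siglec-XII value, which is given with no test. The alpha-2,6 enzymes acting on N-acetylgalactosamine took 15.02% ± 1.45 and 13.6% ± 1.59, those acting on galactose 4.97% ± 0.798 and 4.29% ± 0.556, and the alpha-2,8 enzymes 0.490% ± 0.228 and 0.597% ± 0.130. In each of the 4 linkage classes the difference between the group means was about the size of an SD or smaller, and the library values overlapped. These are shares of RNA, and neither enzyme activity nor the glycans themselves were measured.

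**Figure D3:**
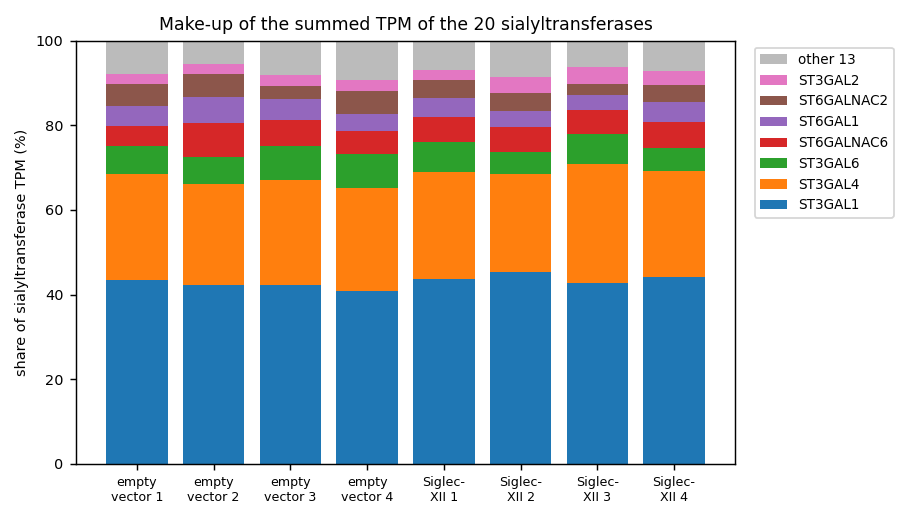
Share of the summed TPM of the 20 sialyltransferases in each of the 8 libraries, in percent, with the 7 most abundant enzymes coloured and the other 13 in grey. ST3GAL1 and ST3GAL4 together take between 65.1% and 70.8% of every bar.

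ST3GAL2, which sialylates gangliosides and O-glycans, had the largest fold change of the 22 genes on this scale. With a pseudocount of 5 that of CMAS was larger (-0.25, against 0.21), as was that of ST6GALNAC2 without empty vector replicate 3 (-0.41, against 0.40). The empty vector libraries were at 2.95, 3.35, 3.20 and 3.05 TPM, and the Siglec-XII libraries at 3.25, 4.83, 5.14 and 4.65 TPM. Siglec-XII replicate 1 lay inside the empty vector range, whereas the other 3 lay above it. The log2 fold change was 0.39 (SE 0.130, 95% interval 0.10 to 0.68), with an unadjusted p of 0.0143 and an adjusted p of 0.197 in limma, and without Siglec-XII replicate 1 it was 0.50 with an adjusted p of 0.130. The unadjusted p was 0.05 or less in 20 of 20 alternatives.

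ST3GAL1 was the second most abundant of the 34 genes when NEU1 was taken as its highest single entry. It was at 51.1, 57.9, 52.3 and 50.4 TPM with the empty vector and at 56.5, 58.3, 55.9 and 61.8 TPM with Siglec-XII. Empty vector replicate 2 lay among the Siglec-XII values. The log2 fold change of 0.13 (SE 0.058, 95% interval 0.0023 to 0.26) had an unadjusted p of 0.0469 and an adjusted p of 0.296 in limma, and only 8 of 21 alternatives kept the unadjusted p at 0.05 or less. ST3GAL4 was at 29.6, 33.0, 30.8 and 30.0 TPM with the empty vector and at 33.0, 29.6, 37.002 and 35.0 TPM with Siglec-XII, in overlapping groups (log2 fold change 0.12, adjusted p = 0.452, limma).

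**Figure D4:**
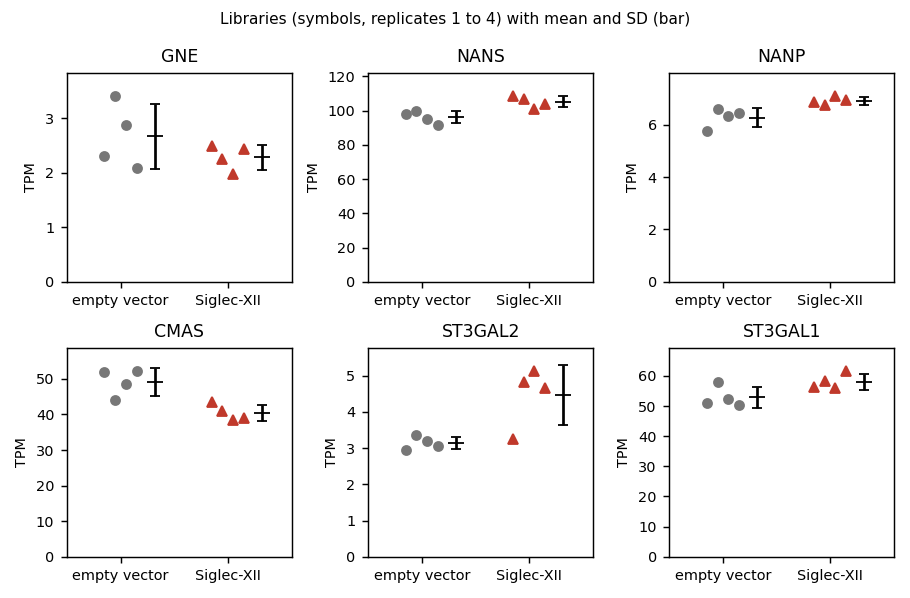
TPM of GNE, NANS, NANP, CMAS, ST3GAL2 and ST3GAL1, 1 panel per gene with its own axis from 0, grey circles for the 4 empty vector libraries, red triangles for the 4 Siglec-XII libraries in the order of their replicate numbers, and bars for mean and SD. The triangles lie above the circles for NANS and NANP and below them for CMAS, and 1 triangle of ST3GAL2 lies among the circles.

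The remaining alpha-2,3 enzymes were lower in level and did not part the groups. ST3GAL6, which acts on N-glycan type acceptors, ran from 6.53 to 10.04 TPM. ST3GAL3, which shares such acceptors, ran from 1.17 to 2.95 TPM, and its SD was 0.907 TPM with the empty vector and 0.115 TPM with Siglec-XII (n = 4 each). ST3GAL5, the GM3 synthase that opens the ganglioside series, ran from 1.19 to 2.34 TPM. Their log2 fold changes were -0.15, -0.17 and 0.03. With a library left out, that of ST3GAL3 ran from -0.32 (without empty vector replicate 2) to -0.04 (without empty vector replicate 1), and that of ST3GAL6 from -0.22 to -0.06 (without Siglec-XII replicate 2).

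ST6GAL1, the main enzyme of alpha-2,6 sialylation on N-glycans, was at 5.35, 8.29, 6.22 and 4.86 TPM with the empty vector and at 5.63, 5.11, 4.81 and 6.70 TPM with Siglec-XII. The groups overlapped (log2 fold change -0.12, adjusted p = 0.751, limma). The ratio of ST3GAL1 to ST6GAL1 was 8.83 ± 1.46 and 10.6 ± 1.15 (SD, n = 4 each), so the O-glycan alpha-2,3 transcript exceeded the N-glycan alpha-2,6 transcript in every library, at the least by 6.98 times. ST6GAL2, its relative of narrower expression, did not pass the filter.

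Among the 6 ST6GALNAC genes, ST6GALNAC6 (7.76 TPM over all libraries), ST6GALNAC2 (5.51), ST6GALNAC4 (3.17) and ST6GALNAC5 (1.51) passed the filter. ST6GALNAC6 and ST6GALNAC5 act on gangliosides, ST6GALNAC2 on O-glycans and ST6GALNAC4 on sialylated core 1. Empty vector replicate 2 held the highest ST6GALNAC6 value, 11.1 TPM, and the other 7 libraries lay between 5.68 and 8.51 TPM. ST6GALNAC2 was at 6.16, 7.37, 3.91 and 6.89 TPM with the empty vector and at 5.52, 5.42, 3.48 and 5.36 TPM with Siglec-XII. Replicate 3 was the lowest of each group. Log2 fold changes of the 4 ran from -0.24 (ST6GALNAC2) to 0.04 (ST6GALNAC6), and none had an unadjusted p of 0.05 or less in limma. For ST6GALNAC2 the value rested on single libraries, with -0.41 (unadjusted p = 0.0280) without empty vector replicate 3 and -0.11 without Siglec-XII replicate 3. ST6GALNAC1, which makes the sialyl-Tn antigen known from mucin-producing carcinomas, was listed at 0 in empty vector replicates 1 and 2 and did not exceed 0.587 TPM, and ST6GALNAC3 did not exceed 0.652 TPM.

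None of the 6 ST8SIA genes passed the filter. ST8SIA1 reached 0.468 TPM, ST8SIA2 reached 0.541 TPM and ST8SIA5, a ganglioside enzyme, reached 0.442 TPM. ST8SIA4, with ST8SIA2 an enzyme of polysialic acid, did not exceed 0.0532 TPM, ST8SIA6 reached 0.0963 TPM and ST8SIA3 reached 0.00458 TPM. The labels give about 25 to 40 (in units of 1e+06) reads per library, but TPM do not give the reads behind a value, so no limit from counts was set on these low values.

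Sialidases were represented by NEU1 and NEU3. NEU3, the plasma membrane sialidase of gangliosides, was at 7.89, 7.58, 9.12 and 8.46 TPM with the empty vector and at 10.4, 8.18, 7.63 and 9.98 TPM with Siglec-XII. The groups overlapped (log2 fold change 0.11, adjusted p = 0.652, limma). NEU2, the cytosolic enzyme, was listed at 0 in all 8 libraries, and NEU4 did not exceed 0.377 TPM.

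The level of NEU1, the lysosomal sialidase, depended on how its entries were read. The symbol stood on 8 entries, 1 of which is in the GRCh37 annotation (chr6:31825436-31830682, minus strand). Of these, 6 had means between 9.24 and 9.52 TPM with identical or nearly identical values in each library, and 2 lay between 0 and 6.33 TPM. Reads from near-identical copies of a gene can be divided among them in quantification, and the extent of this was not tested here. The entry with the highest mean ran from 8.51 to 10.48 TPM, with overlapping groups and a log2 fold change of 0.13 (adjusted p = 0.406, limma).

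Summed over its 8 entries, an alternative chosen after the data were seen, NEU1 stood at 54.3, 59.3, 53.5 and 58.5 TPM with the empty vector. With Siglec-XII the sum was 61.9, 64.5, 60.5 and 64.2 TPM. All Siglec-XII sums were above all empty vector sums. The mean of 59.6 TPM was 6.26 times that of the highest entry and placed NEU1 above ST3GAL1 in 8 of 8 libraries and above NANS in 0. The log2 fold change of the sum was 0.15 (SE 0.051, 95% interval 0.04 to 0.27), with an unadjusted p of 0.0148 and an adjusted p of 0.197 in limma. The 8 entries held 4 distinct sets of values over the libraries. Whether the highest entry or the sum is nearer to the level of the gene was not tested.

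**Figure D5:**
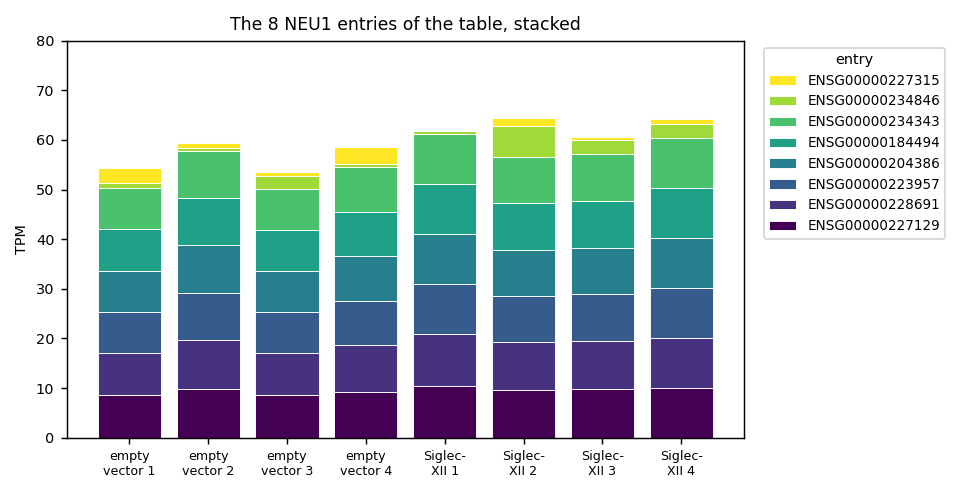
Stacked TPM of the 8 table entries named NEU1 in each library, 1 colour per entry, on an axis from 0. The 6 lower segments of each bar are nearly equal in height, and the full bars, the sums, reach 53.5 to 64.5 TPM.

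Genes that modify or break down sialic acid overlapped between the groups. CASD1, the sialic acid O-acetyltransferase, ran from 6.49 to 9.68 TPM, SIAE, the esterase that removes those acetyl groups, from 6.34 to 7.81 TPM, and NPL, the lyase that splits free sialic acid, from 5.18 to 7.45 TPM. All 3 had log2 fold changes below 0, from -0.11 to -0.02, with an adjusted p of at least 0.658 in limma. CMAHP, the human pseudogene of the enzyme that makes N-glycolylneuraminic acid in other mammals, did not exceed 0.291 TPM.

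Ordered by mean TPM, 5 of the 34 genes were above 10 TPM, 11 between 5 and 10 and 6 between 1 and 5. NEU1 was placed here by its highest single entry. Its sum over 8 entries, 59.6 TPM, lay above ST3GAL1 and below NANS in all 8 libraries. NANS lay above the next gene, ST3GAL1, with no overlap over the 8 libraries. ST3GAL1 was above CMAS in 6 of 8 libraries only, and those ranges overlapped. CMAS, ST3GAL4 and SLC35A1 followed in steps without overlap, and SLC35A1 did not overlap the NEU1 entry below it. From there down to ST6GALNAC5 each gene overlapped its neighbour, and their order is not resolved by these libraries.

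The genes around the pathway were taken from a list of 36, of which 33 passed the filter. Of the 36, 1 stood on more than 1 entry and did not pass by its highest single entry. None passed the adjusted threshold in limma (lowest adjusted p = 0.0995). At an unadjusted p of 0.05 or less, 11 were higher with Siglec-XII (33.3%, against 13.9% of all entries) and 0 were lower (2.61% of all entries). In 6 of the 33 (18.2%) the groups did not overlap, all of them higher with Siglec-XII (9.17% of all entries). In either direction 16.5% of all entries had such a p. Among entries with a mean of at least 5 TPM the share was larger, 20.2% in either direction and 17.4% on the higher side. There, 10 neighbours had such a p. The first count depended on scaling. It was 5 (15.2%) under quantile normalization, where 12.6% of all entries had such a p in either direction and 7.02% on the higher side. With equal upper quartiles it was 7 (21.2%), beside 12.9% and 7.20%. The median log2 fold change of the 33 neighbours, 0.14, stands beside the 0.07 of all entries.

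The hexosamine genes supply the UDP-N-acetylglucosamine that GNE uses or, like GNPDA1, draw hexosamine away from it. They gave 4 of the 11, with 10 of 11 list members tested. That is 40% of the 10, beside 13.9% of all entries on the higher side, and the list is too short for a result about it. UAP1L1, a relative of the enzyme of the last step, was at 8.36, 10.1, 8.86 and 8.91 TPM with the empty vector and at 10.6, 12.2, 10.7 and 12.6 TPM with Siglec-XII, with no overlap (log2 fold change 0.31, adjusted p = 0.144, limma). GNPDA1, which turns glucosamine 6-phosphate back to fructose 6-phosphate, was at 63.1, 71.8, 65.7 and 78.7 TPM and at 78.9, 81.6, 79.9 and 79.7 TPM, again with no overlap but with empty vector replicate 4 next to the Siglec-XII values. RENBP, the N-acetylglucosamine epimerase, ran from 0.963 to 1.66 TPM and from 1.55 to 2.88 TPM, and GNPNAT1, the acetyltransferase, averaged 34.4 ± 2.16 and 38.2 ± 2.25 TPM (SD, n = 4 each). GFPT1, the rate-limiting enzyme, PGM3 and UAP1 had log2 fold changes of 0.18, 0.14 and -0.09, with an adjusted p of at least 0.337 in limma.

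Of the lysosomal partners of NEU1, CTSA, the protective protein, had a mean of 73.7 TPM and a log2 fold change of 0.14 (adjusted p = 0.245, limma), and GLB1, the beta-galactosidase of the same complex, averaged 197 ± 22.9 and 204 ± 14.7 TPM (SD, n = 4 each). Among the enzymes of ganglioside acceptors and their breakdown, 3 of the 7 tested (42.9%) had an unadjusted p of 0.05 or less. All 3 were higher with Siglec-XII, which with such a p held for 13.9% of all entries. So few genes give no result about this list. UGCG, the glucosylceramide synthase, had a log2 fold change of 0.26, B4GALT5, the main lactosylceramide synthase, 0.16 and GM2A, the GM2 activator, 0.18, with an adjusted p of 0.168 to 0.234 in limma. B4GALNT1, which makes GM2 and GD2, averaged 4.47 ± 1.08 and 5.18 ± 0.679 TPM (SD, n = 4 each).

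B4GALT2 was the only one of 6 acceptor enzymes of O-glycans and N-glycans with such a p (log2 fold change 0.17, adjusted p = 0.209, limma), and none of the 4 genes of nucleotide supply and UDP-sugar transport had one. For the 6 acceptor enzymes that is 16.7%, beside 16.5% of all entries in either direction. Of the 3 polysialic acid carriers, CADM1 and NRP2 did not overlap between the groups, and NCAM1, the best-known carrier, did (named here after its values were seen). Higher values without overlap were found for 9.17% of all entries, and 3 genes are too few for a result about the carriers. NCAM1 averaged 3.15 ± 0.611 TPM in empty vector libraries and 3.73 ± 0.626 TPM in Siglec-XII libraries (SD, n = 4 each), with a log2 fold change of 0.19 (adjusted p = 0.540, limma). CADM1, an adhesion molecule, was at 245, 242, 247 and 238 TPM with the empty vector and at 269, 265, 279 and 275 TPM with Siglec-XII (log2 fold change 0.16, adjusted p = 0.0995, limma). NRP2, a semaphorin and VEGF co-receptor, was at 31.2, 32.5, 35.3 and 34.5 TPM and at 41.0, 38.4, 45.9 and 37.8 TPM (log2 fold change 0.28, adjusted p = 0.123, limma). All 3 carriers were thus present at RNA level in cells in which ST8SIA2 and ST8SIA4, the enzymes that would put polysialic acid on them, stayed below 1 TPM.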

How the data were processed

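RNA-seq was available for 8 libraries, 4 per group, grouped by their labels. The authors quantified 100 bp paired reads with kallisto (0.45.0 in the submitters' processing notes, another version in the methods of the study) against hg19 and deposited 1 table of log2(TPM + 1) with 63816 entries. The labels name a strand-specific kit for total RNA and the methods one for mRNA. Each column summed to 1e+06 after back-transformation, so the reads behind a value are unknown (the labels give about 25 to 40 times 1e+06 reads per library, not the count of each), no counting interval was given, and no count test was used. The table had 0 columns of other samples.

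Entries with at least 1 TPM in at least 4 libraries (15590) were fitted in R 4.3.3 by limma 3.58.1 (lmFit, eBayes with a mean-variance trend, Benjamini-Hochberg over all entries), on the deposited scale, with a pseudocount of 1, no covariate and a threshold of 0.05. The fit was tested on simulated data. SIGLEC12 was compared by an exact permutation test. Nothing shows that the libraries of a group are separate cultures, so p-values measure the spread between libraries only. Positions come from a GRCh37 annotation holding 86.9% of the gene IDs. Python 3.11.15, scipy 1.17.1 and matplotlib 3.10.9 were used.

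The members, the neighbouring genes and the markers were chosen with earlier results of these data known. All 34 members, SIGLEC12, the neighbours with an unadjusted p of 0.05 or less or with no overlap, and CTSA, GLB1, GFPT1, PGM3, UAP1, UGCG and B4GALNT1 could be named. Marker lists for liver, fibroblasts and leukocytes had 0 of 5, 4 of 5 and 1 of 5 genes past the filter. Alternatives covered the filter, the pseudocount (0.1 and 5), the scaling, the moderation of variances, a length trend, a replicate block and each library left out. Summing the entries of a symbol was added after the data were seen.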

Additional observations from a re-analysis of the deposited data

Results flagged for a closer look

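ST6GALNAC2, a sialyltransferase of O-glycans, had 1 library far from the rest of its group. Siglec-XII replicate 3 was at 2.16 on the log2(TPM + 1) scale, whereas the other 3 Siglec-XII libraries lay between 2.67 and 2.70, and the gap made up 0.936 of the range of the group, above Dixon's critical value for 4 samples. It was the only such library in 64 groups of 4 examined, and chance gives about 5% of groups. The log2 fold change of ST6GALNAC2 was -0.24, and -0.11 without that library.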

How the results depend on the processing

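No sialic acid gene had an adjusted p under 0.05 in any of 456 values over the 22 tested genes and up to 21 alternatives, and 431 of these kept their direction. The 25 that changed sign belonged to 8 genes with log2 fold changes between -0.12 and 0.05. Quantile normalization gave -0.011 for ST3GAL5 and -0.016 for ST6GALNAC6, equal upper quartiles gave -0.0048 for SLC17A5, -0.0051 for ST3GAL5 and -0.018 for ST6GALNAC6, leaving out mitochondrially encoded and the 100 most abundant genes gave -0.00075 for ST6GALNAC6, and removing the length trend gave -0.029 for SLC17A5, -0.048 for ST3GAL5 and -0.044 for ST6GALNAC6. With each library left out in turn, log2 fold changes ran from -0.082 to 0.20 for ST6GALNAC6, -0.069 to 0.16 for ST3GAL5, -0.21 to 0.015 for ST6GAL1, -0.080 to 0.010 for SIAE, -0.18 to 0.12 for ST6GALNAC5, -0.096 to 0.047 for ST6GALNAC4 and -0.12 to 0.014 for CASD1. Of the genes that kept their sign, 8 moved by over 1.5 times in at least 1 of these fits and 7 did not. The cause was not tested.

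The 101 calls over all entries became 51 with no filter, 39 without small structured RNAs, 54 with eBayes without the trend, and 49 (without empty vector replicate 3) to 159 (without empty vector replicate 2) with a library left out. Each of the other 6 libraries left out gave 56 to 64. The 3 sialic acid genes whose groups did not overlap became 1 with the length trend removed and 3 to 6 with a library left out, 6 without empty vector replicate 2. The 4 at an unadjusted p of 0.05 or less became 2 to 4, 2 without Siglec-XII replicate 1. For the pathway neighbours, 11 were at an unadjusted p of 0.05 or less, beside 16.5% of all entries. They became 5 under quantile normalization (beside 12.6%) and 7 with equal upper quartiles (beside 12.9%). With a library left out they became 8 to 15. They were 8 without empty vector replicate 1 (beside 13.5% of all entries) and 15 without empty vector replicate 2 (beside 19.4%), so the share of all entries moved as well. Calls of neighbours at the adjusted threshold became 0 to 1, the 1 without empty vector replicate 2.

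With the replicate number as a block, 0 sialic acid genes and 0 neighbours were called, and 69 entries were called in all. At 0.05 or less unadjusted stood 3 sialic acid genes and 9 neighbours, beside 15.8% of all entries. Whether the numbers pair the libraries cannot be told from so few. Deviations correlated at -0.0742 to 0.0591 between libraries of the same number and at -0.117 to 0.0687 between others, and 4 of 8 libraries correlated best with their own number. The labels give only an approximate depth, and no limit from counts was set on low values.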
